A study of Mus musculus with 42 samples.

Results

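Kinesins are motor proteins that walk on microtubules or take microtubule ends apart, using energy from ATP. Some work in the dividing cell, where they separate the spindle poles, move chromosomes and build the midzone at which the daughter cells part. Others carry vesicles, mitochondria and protein complexes along the cytoplasm, cilium and axon, and retinal neurons with long axons depend on them. The family was taken by gene symbol (Kif, a number and an optional letter a to c), which gave 37 genes of the 18194 genes with a value. By known role, 11 were grouped as mitotic kinesins, 15 as transport kinesins and 11 as other kinesins, which hold depolymerases, ciliary members and members of little-known function. Motors with other symbols, such as Cenpe and the Kifc genes, were outside the rule and stand in the partner lists.

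Single retinal progenitor cells (RPCs) of CD1 mice, for which neither a genotype nor a treatment is given, were each profiled on 1 Affymetrix mouse array. By age the 42 cells were 11 at embryonic day 12.5 (E12.5), 4 at E13.5, 2 at E14.5, a single cell at E15.5, 11 at E16.5 and 13 at postnatal day 0 (P0). The cells had been called RPCs after profiling, from scores built around Ccnd1, Fgf15 and further progenitor genes. The study called most of them cycling RPCs and the rest most likely transitional cells, which also had a neuronal score. E14.5 cell B1 and E16.5 cell F1 were among the transitional cells, and all 42 cells were kept together here. The labels of the cells name no animal or litter. Each stage therefore counted as 1 sample, no test between stages was run, and the intervals given cover counting only. Intervals of a kinesin class count each gene in each cell as a separate value. Values of 1 cell are not independent, so class intervals are too narrow.

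The value of a gene in a cell was the highest MAS 5.0 signal of its probe sets, and a gene was called present at a signal of 1000 or more. A cell had between 1386 and 5253 genes present, with a median of 3034. Numbers of cells, and not signals, were set side by side between genes. Whether a gene reached 1000 also depends on its probe sets, so these numbers depend on them too. Kif1b, with 7 probe sets, was present in 23 cells, while no single one of them reached 1000 in more than 17. Of 6 progenitor markers, the median cell had all 6 (range 1 to 6). Ccnd1 and Pax6 were present in 41 cells each and Sox2 in 34, where Ccnd1 and Fgf15 had served to choose the cells. Of 9 general neuron markers the median cell had 3 (range 0 to 9), and none of the 9 was missing from all cells. Of the values of 8 photoreceptor markers, 28 of 336 were present (8.33%). Otx2 was present in 9 cells, Crx in 7, Rom1 in 5, Rbp3 in 4 and Nrl in 3, while Rcvrn, Pde6a and Tulp1 were present in none. On 5 of the 11 E16.5 arrays the hybridization controls had another pattern than on the other 37 arrays, and these 5 cells had a median of 4103 genes present, against 2114.5 in the other 6 E16.5 cells. The E16.5 shares of the classes and the differences of single genes from E16.5 are therefore also given without them, while E16.5 signals and correlations include them.

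Many genes used in mitosis carry a CHR element (cell cycle genes homology region) near the start of transcription, and often CCAAT boxes upstream of it. Promoter windows of 300 bases (250 before to 50 after the start) from RefSeq, build GRCm38.p6, were found for 31 of the 37 kinesins, 10 mitotic, 11 transport and 10 other. The letters TTTGAA or TTCGAA were looked for on both strands (on the opposite strand the first reads TTCAAA). They stood in the windows of 9 of 10 mitotic kinesins, 1 of 11 transport kinesins (Kif1a, at a second start) and 3 of 10 other kinesins (Kif24, Kif26b and Kif27). Of all 27025 genes with such a window, 21.7% held them. Within 100 bases before to 50 after the start they stood in 7 of 10 mitotic, 1 of 11 transport and 3 of 10 other kinesins, against 9.87% of all genes with a window. CCAAT, on either strand, was in the windows of 6 of 10 mitotic, 3 of 11 transport and 5 of 10 other kinesins, against 41.1% of genes. A match is only a run of letters. Kif18a was the mitotic kinesin without a match.

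The 7 mitotic kinesins with a match near the start are shown from 60 bases before to 30 after it, with the matching letters in capitals, followed by a pair of widely present transport kinesins that had no match. The stretches lie at Kif22 chr7:127042391-127042480 (minus strand), Kif23 chr9:61946770-61946859 (minus strand), Kif4 chrX:100626005-100626094 (plus strand), Kif11 chr19:37376322-37376411 (plus strand), Kif18b chr11:102925095-102925184 (minus strand), Kif15 chr9:122951021-122951110 (plus strand), Kif20b chr19:34922298-34922387 (plus strand), Kif3a chr11:53567309-53567398 (plus strand), Kif1b chr4:149307704-149307793 (minus strand), all on GRCm38.p6, each covering the last bases before the gene and the first bases of its first exon, and written 5′ to 3′ in the direction of the gene.
Kif22: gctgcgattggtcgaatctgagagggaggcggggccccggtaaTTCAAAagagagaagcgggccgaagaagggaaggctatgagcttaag
Kif23: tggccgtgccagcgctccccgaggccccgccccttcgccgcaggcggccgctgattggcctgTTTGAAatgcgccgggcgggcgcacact
Kif4: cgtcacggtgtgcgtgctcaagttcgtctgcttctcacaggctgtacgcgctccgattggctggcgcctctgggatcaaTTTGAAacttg
Kif11: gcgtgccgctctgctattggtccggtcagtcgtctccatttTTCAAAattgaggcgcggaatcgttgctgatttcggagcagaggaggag
Kif18b: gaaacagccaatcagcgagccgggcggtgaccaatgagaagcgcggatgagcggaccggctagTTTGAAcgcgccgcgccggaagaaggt
Kif15: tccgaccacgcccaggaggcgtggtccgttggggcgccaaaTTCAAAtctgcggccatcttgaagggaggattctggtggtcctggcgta
Kif20b: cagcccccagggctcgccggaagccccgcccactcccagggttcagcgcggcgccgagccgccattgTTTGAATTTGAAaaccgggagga
Kif3a: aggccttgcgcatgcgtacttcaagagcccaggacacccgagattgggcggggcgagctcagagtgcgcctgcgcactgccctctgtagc
Kif1b: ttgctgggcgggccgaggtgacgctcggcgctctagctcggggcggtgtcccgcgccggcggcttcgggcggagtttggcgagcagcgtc
Counted from the first transcribed base as 1, the matches began at -17 in Kif22, 3 in Kif23, 20 in Kif4, -19 in Kif11 and in Kif15, and 4 in Kif18b. In Kif20b there was a pair in a row, at 8 and 14. Among these genes Kif22 was present in 26 cells, whereas Kif15 and Kif20b were present in none.

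Of the 37 kinesins, 29 were present in at least 1 cell (78.4%, against 72.6% of all genes), 15 in 10 or more (40.5%, against 28.7%) and 6 in 21 or more (16.2%, against 10.8%). Those 6 were the mitotic kinesins Kif22 (26 cells) and Kif20a (21), the transport kinesins Kif3a (25), Kif1b (23) and Kif5b (21), and Kif2a (26). Kif4 followed with 20. The exact 95% intervals of these 7 overlapped, from 45.6 to 76.4% of cells for Kif22 and from 32.0 to 63.6% for Kif4. All were measured in the same cells, so this overlap does not decide whether neighbours in the order differ, which was not tested. With the mean of the probe sets of a gene, Kif2a was present in 14 cells, Kif1b in 12 and Kif5b in 9. Kif22 was then present in 23, Kif3a in 22, Kif20a in 21 and Kif4 in 20. The 37 kinesins had 99 probe sets, and all 18194 genes had 34958. The part of probe set number in the differences from all genes was not tested. Of the values of mitotic kinesins, 132 of 462 were present (28.6%, interval 24.5 to 32.9%), of transport kinesins 171 of 630 (27.1%, 23.7 to 30.8%) and of other kinesins 39 of 462 (8.44%, 6.07 to 11.4%). These class intervals take the values of 1 cell as independent and are too narrow.

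The classes differed in how they were spread over genes. Of the mitotic kinesins, 7 of 11 were present in 10 or more cells, Kif18b was present in 3 cells, and Kif14, Kif15 and Kif20b were present in none. All 15 transport kinesins were present somewhere, 7 of them in 10 or more cells, down to 4 cells for Kif13b and Kif16b and 2 for Kif17. Among the other kinesins, Kif2a was in 26 cells, Kif24 in 6 and Kif7, which acts in hedgehog signaling, in 4. Kif6, Kif9 and Kif27 were present in 1 cell each, and Kif2b, Kif12, Kif26a, Kif26b and Kif28 in none. An absence from 42 cells allows a share of up to 8.41%. Just inside and just outside the level lay Kif27, present in its 1 cell at 1004, and Kif26b and Kif20b, whose highest signals were 877 and 858.

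**Figure D1:**
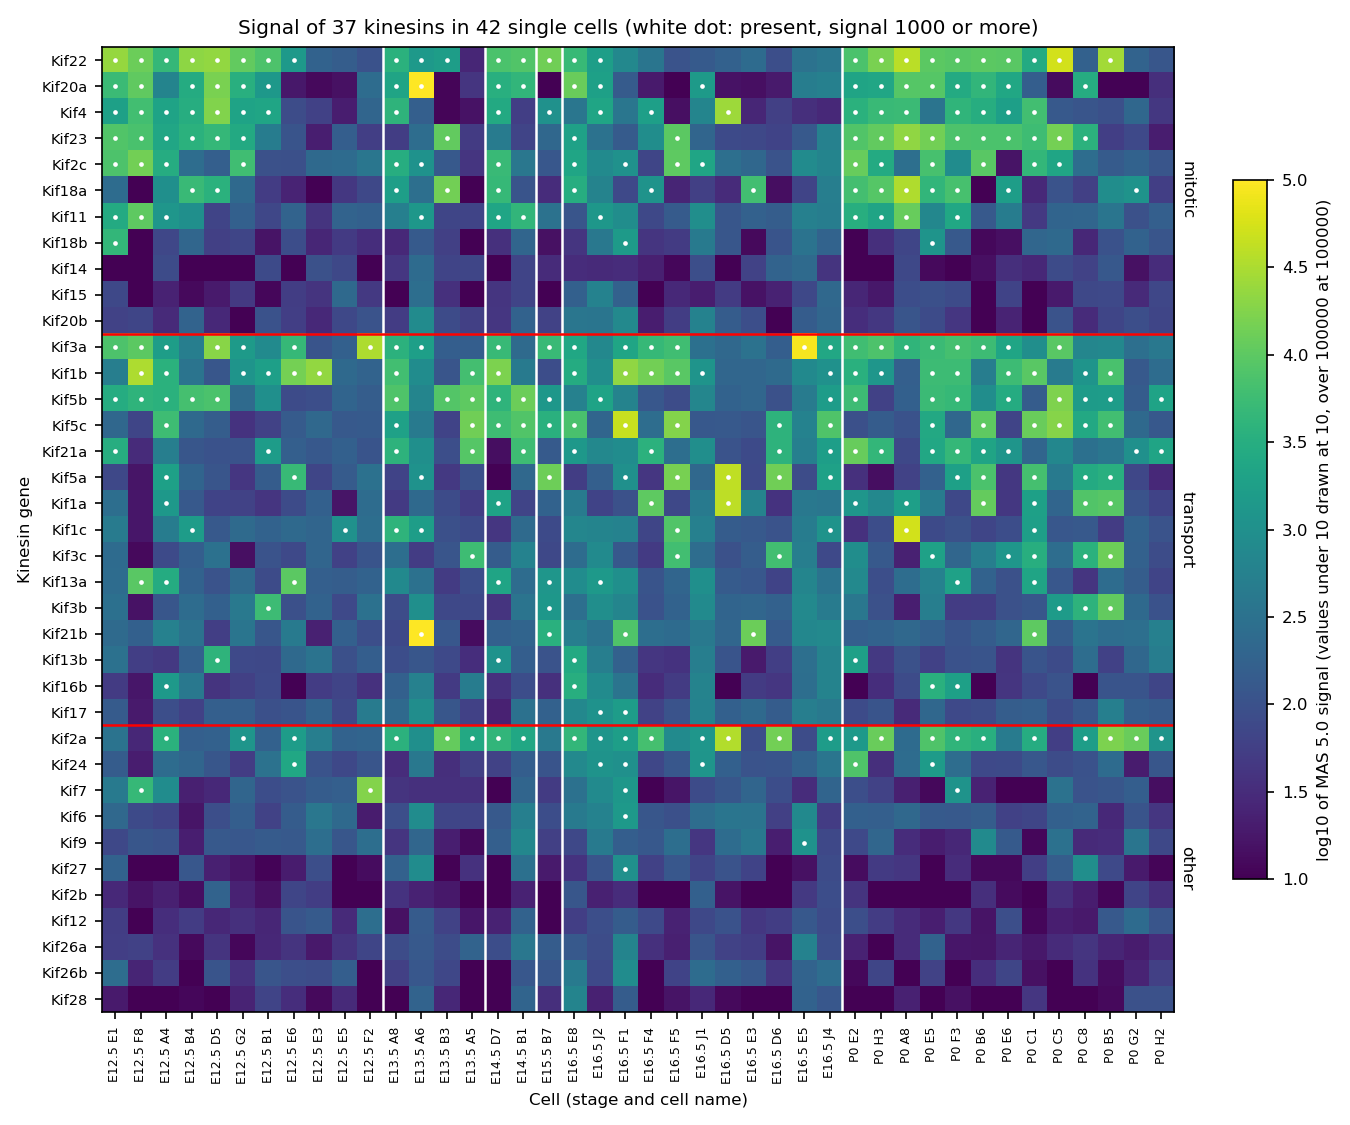
Signal (log10 of MAS 5.0 units, colour) of the 37 kinesins (down) in the 42 cells (across), by class and stage, with cells ordered within a stage by their number of mitotic kinesins, and white dots where the signal was 1000 or more. With this ordering, dots of Kif22, Kif20a, Kif4 and Kif23 gather at one end of a stage, where all 4 were present in 11 cells and none in 11.

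The mitotic kinesins seen most often act from the chromosomes to the midzone. Kif22 is a chromokinesin, a motor on chromosome arms. Its signal had a lowest value, median and highest value of 103, 7673 and 23278 in E12.5 cells. It was 27.0, 1389, 3538 and 1676 in the E13.5 cells, 8103 and 7316 at E14.5, and 13428 at E15.5. In E16.5 cells it ran from 90.4 to 5009 with a median of 322, and in P0 cells from 119 to 53378 with a median of 9643. High values were thus found at every stage, but only 2 of 11 E16.5 cells had Kif22 present, E8 and J2, both among the 5 arrays set apart. At E12.5 it was present in 8 of 11 cells and at P0 in 10 of 13.

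Kif20a brings the chromosomal passenger complex to the midzone. Its signal ran from 12.8 to 15915 with a median of 1334 in E12.5 cells. At E13.5 it was 41.9, 119001, 2163 and 11.4, at E14.5 4333 and 3365, and at E15.5 9.23. It ran from 10.1 to 12114 with a median of 141 in E16.5 cells and from 10.4 to 8693 with a median of 2325 in P0 cells. The highest Kif20a signal, 119001, was that of E13.5 cell A6, which also held the highest signal of Kif21b, 266660.

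Kif4 is a chromokinesin that also binds Prc1 at the midzone. The signal of Kif4 ran from 20.9 to 17478 with a median of 2068 in E12.5 cells. At E13.5 it was 15.7, 160, 4049 and 11.4, at E14.5 54.7 and 2724, and at E15.5 1048. It ran from 14.4 to 25991 with a median of 372 in E16.5 cells and from 44.2 to 6133 with a median of 1842 in P0 cells. The stages overlapped throughout, and the highest cell was an E16.5 cell.

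Kif23 forms centralspindlin with Racgap1. Signals of Kif23 ran from 21.6 to 8317 with a median of 2337 in E12.5 cells. At E13.5 it was 50.1, 265, 52.8 and 10758, at E14.5 65.1 and 458, and at E15.5 220. It ran from 63.7 to 9789 with a median of 201 in E16.5 cells and from 21.3 to 21679 with a median of 7428 in P0 cells. It was present in 6 of 11 E12.5 cells, 1 of the 7 cells from E13.5 to E15.5, 2 of 11 E16.5 cells and 10 of 13 P0 cells.

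**Figure D2:**
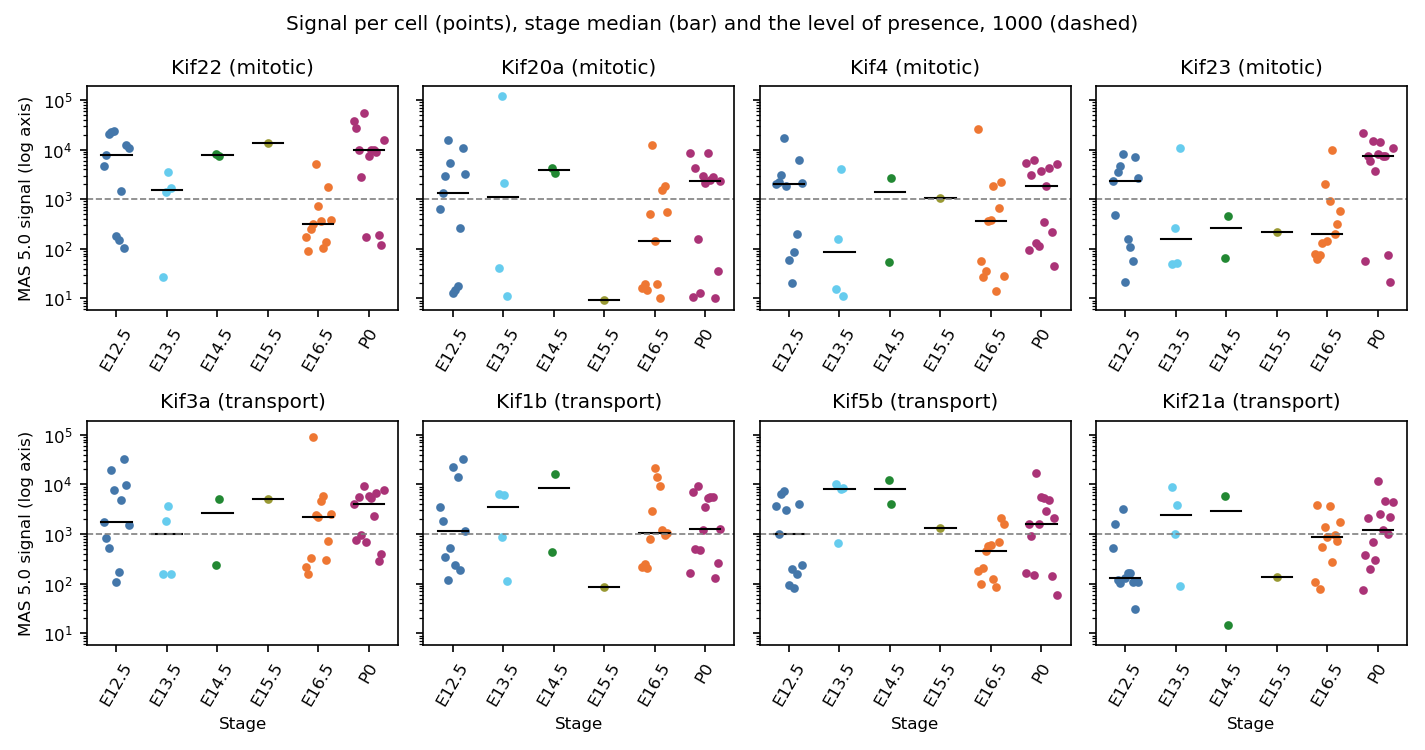
MAS 5.0 signal per cell (log axis) by stage for 4 mitotic (upper row) and 4 transport kinesins (lower row), with the median of each stage as a bar and the level of presence, 1000, dashed. The E16.5 medians of Kif22, Kif20a, Kif4 and Kif23 lie below 1000 and their E12.5 and P0 medians above it.

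Kif18a, a motor that damps chromosome movement at metaphase, ran from 3.54 to 32932 with a median of 1124 in P0 cells and from 2.39 to 5218 with a median of 72.3 in E12.5 cells. It was 5.95, 292, 1727 and 14097 at E13.5, 108 and 4821 at E14.5 and 32.4 at E15.5, and ran from 14.3 to 6068 with a median of 76.5 at E16.5. It was present in 15 cells. Kif2c takes microtubule ends apart at the kinetochore. It was present in 17 cells, 4 of the 11 E12.5, 4 of the 11 E16.5 and 6 of the 13 P0 cells among them, and its highest signal was 14043, in an E12.5 cell. Kif11, the motor that pushes the spindle poles apart, was present in 11 cells, 3 of the 11 E12.5, 1 of the 11 E16.5 and 4 of the 13 P0 cells among them, and its highest signal was 11601, in a P0 cell.

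The mitotic kinesins in the most cells were found together. Of the 4 mitotic kinesins in the most cells, 11 cells had none and 11 had all 4. Kif22 was present in 19 of the 21 cells with Kif20a, 18 of the 20 with Kif4, 17 of the 19 with Kif23 and all 11 with Kif11. For a pair of genes the Jaccard index divides the cells with both by the cells with either. Over genes in 3 or more cells its median was 0.411 for 28 pairs of mitotic kinesins, 0.167 for 91 pairs of transport kinesins, 0.173 for 112 mixed pairs and 0.15 for pairs of all genes. The index grows with the number of cells that have a gene. With genes in 10 or more cells, 7 of each class, the medians were 0.44 for mitotic, 0.333 for transport and 0.321 for mixed pairs, against 0.263 for pairs of all genes in 10 to 26 cells. The highest was Kif20a with Kif22, 0.679, the highest mixed pair was Kif22 with Kif3a, 0.594, and the highest among transport kinesins was Kif1b with Kif3a, 0.5. Not all mitotic pairs were high: Kif11 with Kif18a stood at 0.238 and Kif2c with Kif18a at 0.231.

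**Figure D3:**
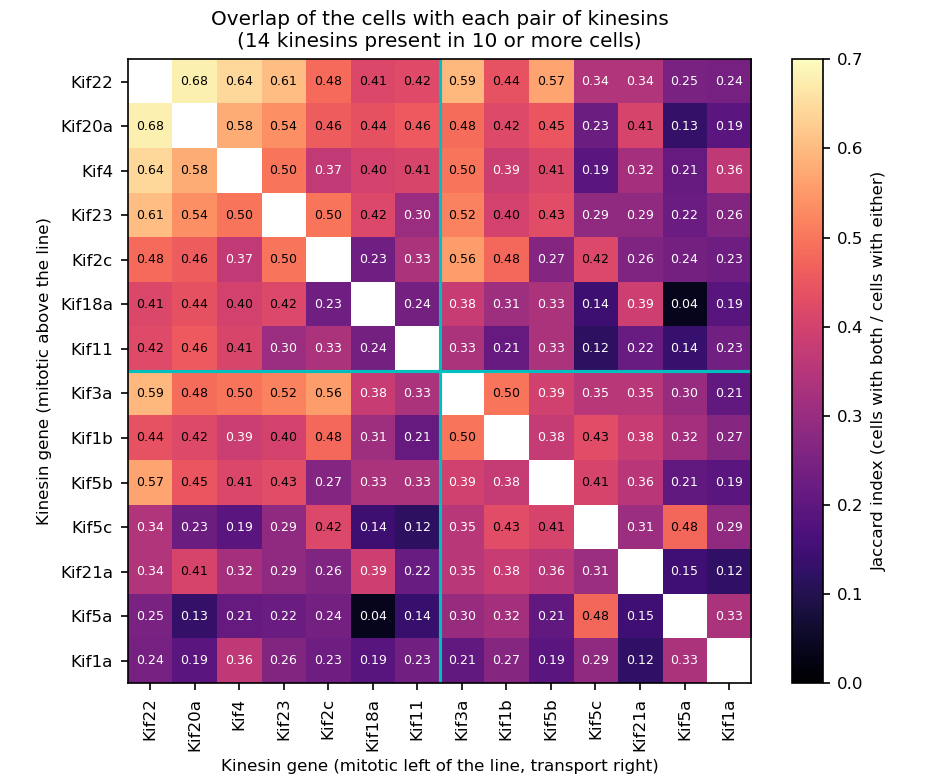
Jaccard index (cells with both genes over cells with either, colour and number) for each pair of the 14 mitotic and transport kinesins present in 10 or more cells, with lines between the classes. Kif22, Kif20a, Kif4 and Kif23 form a block at 0.50 to 0.68, Kif3a stands at 0.33 to 0.59 with the mitotic kinesins, and Kif5a with Kif18a is lowest at 0.04.

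A cell had a median of 3 mitotic kinesins present (range 0 to 7), and 8 of the 42 cells had none. Over the 42 cells the number of mitotic kinesins had a Spearman rho of 0.867 and a Pearson r of 0.853 with the number of 23 other mitosis genes present, among them Prc1 (30 cells), Racgap1 (29), Tpx2 (26) and the passenger complex subunits Incenp and Cdca8 (30 each). The rho was 0.823 within E12.5, 0.86 within E16.5 and 0.819 within P0. These numbers come from the same arrays and share their depth: the rho of the number of mitotic kinesins with that of all genes present was 0.429. Outside the family, the genes whose signal was most like the number of mitotic kinesins, among 7664 genes in 5 or more cells, were Tacc3 (rho 0.797), Ckap2l (0.773), Cdca8 (0.708), Incenp (0.691), Ncapg (0.67), Espl1 (0.669), Arhgap11a (0.657), Cdc25c (0.654), Bub1 (0.643) and Cenpl (0.635). The median over all those genes was 0.0559.

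Transport kinesins were present in every cell, with a median of 4 (range 1 to 8). Kif3a is the motor subunit that, with Kif3b or Kif3c, makes heterotrimeric kinesin-2, which builds cilia. Its signal ran from 109 to 31819 with a median of 1713 in E12.5 cells. It was 156, 1836, 3699 and 156 at E13.5, 237 and 5012 at E14.5 and 5052 at E15.5. It ran from 155 to 88252 with a median of 2253 in E16.5 cells and from 285 to 9344 with a median of 4088 in P0 cells. It was present in 7 of 11, 6 of 11 and 8 of 13 cells at E12.5, E16.5 and P0.

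The known partners of Kif3a were seen less widely. Kif3b was present in 5 cells, Kif3c in 8 and the adaptor Kifap3 in 18. Kif3a stood with Kif3b in 2 cells, with Kif3c in 3 and with Kifap3 in 10, and no cell had all of Kif3a, Kif3b and Kif3c. The overlap to be expected from the numbers of cells was not computed. With Kif3b and Kif3c in so few cells, these overlaps do not show that the genes avoid each other. All 4 probe sets of Kif3a reached the level of presence in some cell, against 2 of 4 of Kif3b and 1 of 2 of Kif3c. The part of the probe sets in the numbers of cells was not tested.

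Kif1b carries mitochondria and precursors of synaptic vesicles, and its signal ran from 119 to 32477 with a median of 1172 in E12.5 cells. It was 6349, 866, 6207 and 114 at E13.5, 434 and 16308 at E14.5 and 87.3 at E15.5. It ran from 207 to 21792 with a median of 1061 in E16.5 cells and from 131 to 9499 with a median of 1267 in P0 cells. The stage medians of E12.5, E16.5 and P0 thus lay just above the level of presence, and the gene was present in 6, 6 and 8 cells.

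The Kif5 genes encode the heavy chain of conventional kinesin, Kif5b in most cells of the body and Kif5a and Kif5c mainly in neurons. Kif5b ran from 83.4 to 7323 with a median of 987 in E12.5 cells. It was 10255, 651, 7935 and 8443 at E13.5, 12535 and 3995 at E14.5 and 1326 at E15.5. It ran from 86.3 to 2091 with a median of 460 in E16.5 cells and from 59.6 to 16739 with a median of 1623 in P0 cells. It was thus present in 6 of the 7 cells from E13.5 to E15.5 but in 2 of 11 at E16.5, J2 and J4, both among the 5 arrays set apart.

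Kif5c ran from 66.3 to 18521 with a median of 235 in P0 cells and from 39.1 to 5664 with a median of 143 in E12.5 cells. It was 13641, 442, 1956 and 64.0 at E13.5, 8106 and 5752 at E14.5 and 3398 at E15.5, and ran from 114 to 45974 with a median of 602 at E16.5. It was present in 1 of the 11 E12.5 cells and in 5 of the 7 cells from E13.5 to E15.5. Kif5a was present in 14 cells, 2 of the 11 E12.5, 5 of the 11 E16.5 and 5 of the 13 P0 cells among them, and its highest signal was 41956, in an E16.5 cell. Of those 14 cells, 10 also had Kif5c and 6 also had Kif5b. The light chain Klc1 was present in 29 cells and stood with Kif5b in 17.

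Kif21a, a motor that slows microtubule growth in axons, ran from 74.5 to 11736 with a median of 1213 in P0 cells and from 31.5 to 3162 with a median of 128 in E12.5 cells. It was 8828, 985, 3900 and 91.3 at E13.5, 5808 and 14.3 at E14.5 and 135 at E15.5, and ran from 78.1 to 3826 with a median of 888 at E16.5. Its close relative Kif21b was present in 5 cells, with signals from 3432 to 266660, and no cell had both, Kif21a being present in 17. Kif21b shared 1 cell with Kif5b, present in 21, and 3 with Kif5c, present in 17. With Kif21b in so few cells, this does not show that Kif21a and Kif21b exclude each other.

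Kif1a, the motor of synaptic vesicle precursors, ran from 45.1 to 11241 with a median of 745 in P0 cells and from 17.1 to 1377 with a median of 81.8 in E12.5 cells. It was 51.1, 232, 48.2 and 83.0 at E13.5, 65.7 and 2013 at E14.5 and 183 at E15.5, and ran from 38.7 to 39837 with a median of 404 at E16.5. Kif3c ran from 23.5 to 13329 with a median of 508 in P0 cells and from 12.7 to 312 with a median of 107 in E12.5 cells, so that no E12.5 cell had it present. It was 5737, 51.1, 279 and 113 at E13.5, 592 and 146 at E14.5 and 73.4 at E15.5, and ran from 47.2 to 6065 with a median of 256 at E16.5. Both were thus high in single cells of several stages and low in most. Kif1c and Kif13a were present in 8 cells each.

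Over the 42 cells the signal of Kif5a had a rho of 0.441 with the number of 9 general neuron markers present and of -0.352 with the number of mitotic kinesins. For Kif5c these were 0.395 and -0.15. For Kif3a they were 0.00795 and 0.471, and for Kif5b -0.0717 and 0.367. For the other transport kinesins in 10 or more cells they were 0.269 and 0.14 for Kif1a, 0.0734 and 0.176 for Kif1b, and -0.178 and 0.0808 for Kif21a. By cells, Kif5a stood with Kif22 in 8, with Kif4, Kif2c and Kif23 in 6 each, with Kif20a in 4, with Kif11 in 3 and with Kif18a in 1. The 7 mitotic kinesins in 10 or more cells had rhos from 0.388 to 0.654 with the number of the other mitotic kinesins, and from -0.295 to 0.232 with the neuron markers.

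Per cell, the numbers of mitotic and transport kinesins had a rho of 0.327 and an r of 0.318 (42 cells). Within stages, E12.5 cells gave a rho of 0.611, E16.5 cells 0.171 and P0 cells 0.141. The number of transport kinesins had a rho of 0.6 with the number of all genes present. When the same number of genes was taken as present in every cell, the rho between the classes was 0.0718. With the number of 22 transport partners present (light chains, adaptors, dynein and dynactin subunits) the number of transport kinesins had a rho of 0.649. The number of all genes present had one of 0.806 with these partners, so depth moved with both.

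**Figure D4:**
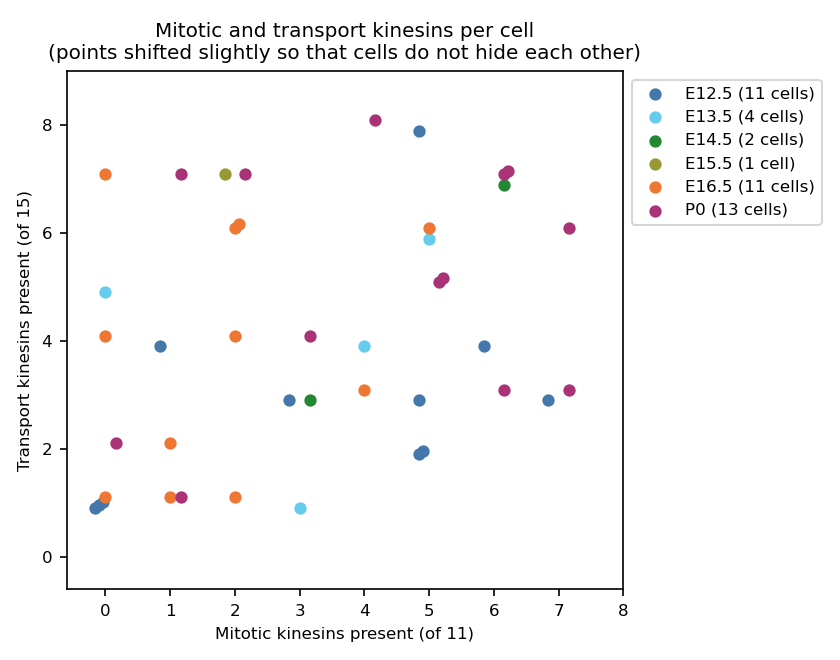
Number of transport kinesins present (of 15) against number of mitotic kinesins present (of 11) for each of the 42 cells, coloured by stage. The numbers run from 0 to 7 mitotic and from 1 to 8 transport kinesins, with a rho of 0.327 over all cells and of 0.611, 0.171 and 0.141 within E12.5, E16.5 and P0.

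At P0, 53 of 143 mitotic kinesin values were present (37.1%, interval 29.1 to 45.5%), against 37 of 121 at E12.5 (30.6%, 22.5 to 39.6%), a difference of 6.48 points. That difference was 3.43 without E12.5 cell E3, E5 or F2, 4.27 without P0 cell E2 or H3, and 9.79 without E12.5 cell E1. For transport kinesins it was 65 of 195 at P0 (33.3%, 26.8 to 40.4%), against 32 of 165 at E12.5 (19.4%, 13.7 to 26.3%), a difference of 13.9 points. Values of 1 cell are not independent, so these intervals are too narrow. A gene was counted as different between stages when its share of positive cells differed by 30 points or more, among genes in 5 or more of the 42 cells. Of the 21 kinesins in that many cells, 6 were present in more P0 cells by that margin and none in fewer, against 11.1% and 3.59% of 7685 genes. The 6 were 1 of 7 mitotic kinesins (Kif18a), 4 of 12 transport kinesins (Kif21a, Kif3c, Kif1a and Kif5c) and 1 of 2 other kinesins (Kif2a). The median difference was 6.99 points for the mitotic and 15.0 for the transport kinesins, against 5.59 for all those genes.

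Kif2a, a depolymerase that also limits axon branching, had the widest gap. Its signal ran from 55.1 to 16328 with a median of 2998 in P0 cells and from 27.5 to 3561 with a median of 196 in E12.5 cells. It was 2575, 970, 3756 and 11431 at E13.5, 2401 and 4237 at E14.5 and 417 at E15.5, and ran from 84.3 to 34128 with a median of 1642 at E16.5. It was present in 10 of 13 P0 cells against 3 of 11 E12.5 cells, a difference of 49.7 points (Newcombe interval 9.69 to 72.7). Kif21a was present in 8 of 13 against 2 of 11 (43.4 points, 4.01 to 67.9) and Kif3c in 5 of 13 against 0 of 11 (38.5, 5.29 to 64.5). Kif1a and Kif5c were present in 6 of 13 P0 cells against 1 of 11 E12.5 cells (37.1, 0.36 to 62.9). Kif18a was present in 7 of 13 P0 cells against 2 of 11 E12.5 cells (35.7, -2.82 to 62.1), an interval that includes 0. The kinesins from Kif2a to Kif18a were picked by the size of these same differences. An interval without 0 is therefore no support for a difference. Kif24, which acts at centrioles, was in 2 of 13 P0 cells and 1 of 11 E12.5 cells. Its signal ran from 20.0 to 7924 with a median of 116 at P0, and from 20.7 to 2457 with a median of 119 at E12.5. It was 57.8, 407, 32.7 and 34.1 at E13.5, 155 and 61.7 at E14.5 and 111 at E15.5, and ran from 69.9 to 1204 with a median of 178 at E16.5, where 3 of 11 cells had it.

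Of the other kinesins in 20 or more cells, none passed 30 points. Kif22 was present in 10 of 13 P0 cells against 8 of 11 E12.5 cells (4.2 points, -28.1 to 37.1) and Kif3a in 8 of 13 against 7 of 11 (-2.1, -35.7 to 33.0). The difference was 6.99 points (-28.5 to 40.7) for both Kif20a and Kif1b, 16.1 (-21.1 to 48.0) for Kif5b and -9.79 (-42.3 to 26.6) for Kif4. Intervals this wide leave room for large differences either way.

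**Figure D5:**
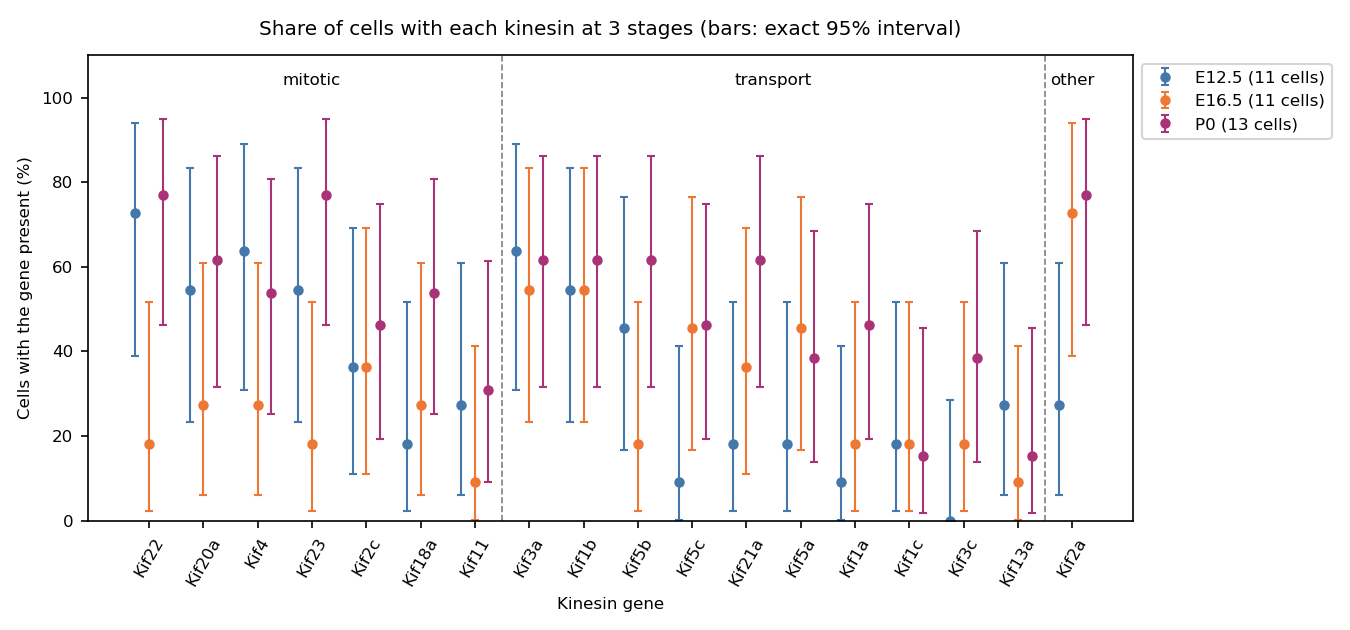
Percent of cells with each kinesin present at E12.5 (11 cells), E16.5 (11) and P0 (13), with exact 95% intervals, for mitotic and transport kinesins in 8 or more cells and Kif2a. For Kif22 and for Kif23, E16.5 is the lowest of the 3 stages (18.2% each), and Kif2a is at 27.3% at E12.5 and 76.9% at P0.

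The median P0 cell had 3063 genes present, and the median E12.5 cell 2800. With the same number of genes taken as present in every cell, the differences were 3.56 points for mitotic and 10.8 for transport kinesins, and 4 kinesins passed 30 points. The number past 30 points was 3 with presence at 2000, 2 at 5000, and 3 with the mean of the probe sets of a gene. Of the 9 general neuron markers, P0 cells had a median of 1 present (range 0 to 9) and E12.5 cells 2 (0 to 5). As shares of values, however, 31.6% were present at P0 and 23.2% at E12.5. Ganglion cell markers were at 23.9% at P0 and 14.1% at E12.5, amacrine markers at 18.3% at P0 and 4.55% at E12.5, and photoreceptor markers at 12.5% at P0 and 3.41% at E12.5. Shares of markers of all 4 lists were thus higher at P0, as were those of transport kinesins and of all genes (18.1% against 15.3%). The median cell had 1 ganglion and 0 photoreceptor markers at both stages, and 1 amacrine marker at P0 against 0 at E12.5. For the ganglion markers the median summed signal was 3730 at P0 and 7730 at E12.5. The summed signal of the general neuron markers ran from 948 to 111000 with a median of 6490 at P0, and from 1010 to 63800 with a median of 15600 at E12.5. Within P0 the number of transport kinesins had a rho of 0.62 with the number of neuron markers (13 cells). This rho was 0.142 within E12.5, -0.00952 within E16.5 and 0.323 over all 42 cells. The part of transcripts of these other cell types in the transport kinesin values was not tested.

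At E16.5, 19 of 121 mitotic values were present (15.7%, 9.73 to 23.4%), against 37 of 121 at E12.5 (30.6%), a difference of -14.9 points. Intervals of mitotic values at E16.5, here and in the next paragraph, are too narrow as well. Of the 21 kinesins in 5 or more cells, 3 were present in fewer E16.5 than E12.5 cells by 30 points or more, against 4.79% of genes, and all 3 were mitotic. The difference for Kif22 was -54.5 points (-76.4 to -13.0), for Kif4 -36.4 (-63.9 to 4.34) and for Kif23 -36.4 (-63.8 to 3.33). In the upward direction 2 of 21 kinesins passed, against 4.62% of genes, namely Kif5c (36.4 points, -1.12 to 63.9) and Kif2a (45.5, 4.03 to 70.2). At P0, 53 of 143 mitotic values were present (37.1%), against 19 of 121 at E16.5 (15.7%), a difference of 21.4 points. Between these stages 4 of the 21 kinesins were present in more P0 cells by 30 points or more, against 11.8% of genes. They were 3 of 7 mitotic kinesins, Kif22 and Kif23 by 58.7 points each (18.6 to 78.5) and Kif20a by 34.3 (-4.91 to 61.4), and 1 of 12 transport kinesins, Kif5b by 43.4 (4.01 to 67.9). None passed in the downward direction, against 4.01% of genes. Both comparisons share the E16.5 cells.

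The 5 E16.5 arrays with another control pattern had 13 of 55 mitotic values present (23.6%, 13.2 to 37.0%), and the other 6 E16.5 cells had 6 of 66 (9.09%, 3.41 to 18.7%). Without the 5 arrays, 5 of 21 kinesins were present in fewer E16.5 than E12.5 cells by 30 points or more, against 14.3% of genes, namely Kif22, Kif20a, Kif5b, Kif23 and Kif4. In the upward direction Kif2a (22.7 points, -20.1 to 58.5) and Kif5c (24.2, -12.9 to 61.7) no longer passed, and Kif3c (33.3, -1.73 to 70.0) and Kif5a (31.8, -11.2 to 65.7) did, against 4.87% of genes. Between P0 and E16.5, 5 of 21 passed upward, Kif22, Kif20a, Kif5b, Kif23 and Kif11, against 23.7% of genes, and none downward, against 2.62%. Without the 5 arrays, the difference in mitotic kinesins was -21.5 points for E16.5 minus E12.5 and 28.0 for P0 minus E16.5. Of the values of all genes, 11.97% were present in the other 6 E16.5 cells, against 15.32% at E12.5 and 18.1% at P0. The part of depth in the differences without the 5 arrays was not tested. With all E16.5 cells the differences in mitotic kinesins were -14.9 and 21.4 points. They were -16.5 and 20.1 with the same number of genes taken as present in every cell. At a presence level of 500 they were -3.31 and 9.41, again with all E16.5 cells, so their size depends on the level. For transport kinesins, 41 of 165 values were present at E16.5 (24.8%), against 32 of 165 at E12.5 (19.4%), a difference of 5.45 points. It was 0.606 without the 5 arrays and 24.8 at a presence level of 500. Of the 23 other mitosis genes, E12.5 cells had a median of 13 present, E16.5 cells 7 and P0 cells 16. E16.5 cells had a median of 4 of the 9 general neuron markers (range 1 to 8), with a summed signal from 5870 to 314000, and a median of 5 of the 6 progenitor markers. The part of these markers and of the other mitosis genes in the counts of mitotic kinesins was not tested.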

How the data were processed

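Single retinal cells of CD1 mice were lysed, and their cDNA was amplified by 35 cycles of PCR and hybridized to 1 array each. The intensity values deposited by the authors are signals computed with MAS 5.0, on a linear scale, with each array scaled to a target intensity of 500. Signals of 1 gene were compared between cells, although the probe set with the highest signal could differ from cell to cell. For Kif3a the positive cells drew on 4 probe sets, in 13, 6, 5 and 1 cells. Signals of different genes were not set against each other, but the summed marker signals add them. Gene symbols came from the platform annotation: 34958 of 45101 probe sets had 1 symbol, 99 of them for kinesins, and the 37 kinesin symbols matched RefSeq by gene identifier. A probe set shared by Kif27 and another gene was left out.

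From these values, a gene value was the highest signal of its probe sets, present at 1000 or more, as in the study. The number of genes present per cell, from 1386 to 5253, described depth. The number of arrays limits the precision. Stage comes from the labels, and each stage was treated as 1 sample because no animal is named. Shares have exact (Clopper-Pearson) and differences Newcombe 95% intervals, which cover counting error only. Correlations and Jaccard indices are descriptions over cells. Full values are given for the 4 mitotic and 4 transport kinesins in the most cells (Kif21a and Kif5c tied), each kinesin past 30 points between P0 and E12.5, and other kinesins in 5 or more cells, and the 10 genes most like the number of mitotic kinesins are named. The members, classes and lists were chosen with earlier results of these data known. The alternatives changed the presence level (500, 2000, 5000), the probe set rule, the number of genes present and the arrays used. Scripts ran in Python 3.11.15 with numpy 2.4.6, pandas 2.3.3, scipy 1.17.1 and matplotlib 3.10.9, and were tested on simulated data.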

Additional observations from a re-analysis of the deposited data

Results flagged for a closer look

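In the E13.5 group of 4 cells, 18 values (the signals of the 15 kinesins in 10 or more cells and 3 counts per cell) were examined for a cell far from the other 3, on the linear scale. There were 6 such values. The check marks about 1 group in 20 by chance where values are normally spread, a rate that does not hold for linear signals of this range. On log10 signals, none of the 6 was marked, and 1 of the 15 kinesins was, Kif5b. Cell B3 had Kif18a at 14097 and Kif23 at 10758, with the next cell at 1727 and 265. Cell A6 had Kif20a at 119001, with the next at 2163, and Kif5a at 1107, with the next at 94.9. Cell A8 had Kif4 at 4049, with the next at 160, and cell A5 had Kif5c at 13641, with the next at 1956. Outside the values used, the probe set shared by Kif27 and another gene passed 1000 in 1 cell, E16.5 F1, at 1807, the only cell in which the probe set of Kif27 alone passed it, at 1004.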

How the results depend on the processing

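Over 14 results there were 97 alternative values, leaving out the single-cell omissions. None changed sign, which only the stage differences and the rank correlation could do. Of the 97, 76 stayed within the spread of the value and 21 moved by more. The spread was an interval, a standard deviation either side of a median, or a set factor for the number of kinesins past 30 points. With the same number of genes present in every cell, the rank correlation was 0.0718 against 0.327. At a level of 5000, the median Jaccard index of mitotic pairs was 0.25 against 0.411. Both counted as within the spread. At a presence level of 500 the values present were 34.0% of mitotic, 37.8% of transport and 12.3% of other kinesin values, the median Jaccard index of transport pairs was 0.286, and the differences for mitotic kinesins were -3.31 points for E16.5 minus E12.5 and 9.41 for P0 minus E16.5, with 24.8 points for transport kinesins at E16.5 minus E12.5. At 2000 the percentages were 23.6, 19.8 and 4.55, at 5000 they were 13.4, 12.4 and 2.16 with a median of 1 transport kinesin per cell, and with the mean of the probe sets they were 24.5, 16.5 and 4.55. The number of kinesins past 30 points between P0 and E12.5 was 6, and it was 3 at 2000, 2 at 5000 and 3 with the mean of the probe sets. With genes in 10 or more cells, the median Jaccard index of transport pairs was 0.333. This limit for pairs, the P0 minus E16.5 comparison, the alternatives for E16.5 minus E12.5 and the leaving out of single cells were chosen after seeing the data. Leaving out 1 cell at a time, the P0 minus E12.5 difference ranged from 3.43 to 9.79 points for mitotic and from 12.3 to 17.3 for transport kinesins with 6 kinesins past 30 points each time. The mitotic differences ranged from -17.9 to -11.6 for E16.5 minus E12.5 and from 19.1 to 24.4 for P0 minus E16.5, and the rank correlation of the numbers from 0.288 to 0.389. No paired analysis was possible because cell names do not pair cells across stages and no result comes from a test. A signal under 1000 in an amplified single cell does not show that a transcript was missing.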
